A study of Mus musculus with 10 samples.

Results

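The Notch pathway genes examined here were 3 receptors (Notch1, Notch2 and Notch3), 3 ligands (Jag1, Jag2 and Dll4) and 4 target genes (Hes1, Hey1, Heyl and Nrarp), measured by RNA sequencing in 10 mouse melanomas. They were chosen by gene symbol, are 10 of the 47643 genes in the deposited tables, and all 10 were among the 14816 genes that passed the filter on low counts. The genotype of the 5 Fes KO tumours included Tyr::CreERT2/+, BRafV600E/+ and Fes-/-, and the 5 Fes WT tumours differed in carrying Fes+/+. Both groups therefore shared, among their engineered alleles, the Braf allele and a Cre that is driven by the tyrosinase promoter of melanocytes, and tumours were started with 5 mM 4OH-Tamoxifen on the back skin. No label gives the ages of the mice or says that tumours came from separate animals, and each p-value is then a measure of spread among tumours only.

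Notch receptors are membrane proteins that bind Jagged or Delta-like ligands on a neighbouring cell. Binding lets proteases release the intracellular part of the receptor, which enters the nucleus and activates genes with the DNA-binding protein RBPJ. In skin and tumours the pathway is known from blood vessel sprouting, where Dll4 marks endothelial cells, from mural cells, where Notch3 and Heyl are used, and from keratinocyte and melanocyte lineages.

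Total counts lay between 13226783 and 16599120 per tumour. Levels are given as CPM, counts scaled to the normalised library size per tumour (counts per 1e+06). The tumours differed in content: the summed level of 12 keratinocyte markers was 5803 CPM in Fes KO 2 and 14.0 to 228 CPM in the others, and that of 10 skeletal muscle markers was 14820 CPM in Fes WT 3 and 3.06 to 1841 CPM in the others. Xist was at 670 to 720 CPM in Fes KO 1, Fes KO 2 and Fes WT 5 and below 1 CPM in the other 7, whose Ddx3y was at 71.8 to 115 CPM. Of the melanocyte markers, Sox10 was at 392 to 970 CPM in every tumour, whereas Tyr, which encodes the pigment enzyme tyrosinase, was at 0.46 to 6.66 CPM outside Fes KO 2. The 8 melanocyte markers summed to 829 to 1048 CPM in Fes KO against 534 to 880 CPM in Fes WT. Of these, 7 had log2 fold changes above 0 (52.4% of all genes), and the median of all 8 was 1.95. Fes KO 2 weighs on that median, since the 8 markers averaged 6.10 in log2 CPM there. Apart from Fes KO 2 the groups overlapped, with averages from 1.79 (Fes KO 5) up to 3.78 (Fes KO 4). Those of Fes WT ran from 2.19 (Fes WT 1) up to 3.54 (Fes WT 3). All 8 macrophage markers and all 7 tested T cell markers lay below 0, with medians of -0.78 and -1.12. None of these genes had an adjusted p below 0.05 (edgeR quasi-likelihood test, 0.175% of all genes). Fes itself averaged 38.9 ± 11.5 CPM in the Fes KO tumours against 81.3 ± 12.7 CPM in Fes WT (SD, n = 5 each), with no overlap between the groups and a log2 fold change of -1.06 (adjusted p = 0.0846, edgeR quasi-likelihood test). In bulk RNA, fewer cells of a type and less RNA per cell cannot be told apart.

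The promoters of the genes on which the results turn are shown for context, as the 250 bases before the transcription start in RefSeq (GRCm38.p6), 5′ to 3′ on the strand of the gene. Dll4 lies at chr2:119325534-119325783 (plus strand), Efnb2, a further Notch target described below, at chr8:8661243-8661492 (minus strand) and Nrarp at chr2:25180508-25180757 (plus strand). Capitals mark the letters CACGTG, an E-box of the kind bound by Hey proteins.
Dll4: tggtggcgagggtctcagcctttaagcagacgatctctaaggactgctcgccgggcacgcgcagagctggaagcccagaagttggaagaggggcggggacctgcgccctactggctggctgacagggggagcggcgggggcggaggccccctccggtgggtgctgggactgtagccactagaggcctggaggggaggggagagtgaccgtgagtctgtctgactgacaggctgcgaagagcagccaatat
Efnb2: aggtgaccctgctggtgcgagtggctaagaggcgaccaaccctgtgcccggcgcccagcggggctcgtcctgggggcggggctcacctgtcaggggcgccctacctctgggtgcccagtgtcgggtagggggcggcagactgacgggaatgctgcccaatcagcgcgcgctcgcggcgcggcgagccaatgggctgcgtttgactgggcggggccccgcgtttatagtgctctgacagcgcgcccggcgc
Nrarp: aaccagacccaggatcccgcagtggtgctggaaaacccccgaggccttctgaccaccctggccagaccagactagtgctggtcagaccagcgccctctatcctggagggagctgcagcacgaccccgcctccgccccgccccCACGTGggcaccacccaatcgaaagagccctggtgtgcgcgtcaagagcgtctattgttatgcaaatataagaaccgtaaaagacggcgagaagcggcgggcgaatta
Of the 10 genes, 7 matched an entry in the promoter table (Notch1, Notch2, Notch3, Jag1, Jag2, Dll4 and Nrarp). Nrarp was the only target gene among them, since Hes1, Hey1 and Heyl had no entry. The RBPJ core letters TGGGAA, searched on both strands, occurred in 0 of these 7 windows and in 21.6% of all 32851 windows in the table. The longer GTGGGAA, which contains the former, occurred in 5.42% of all windows. CACGTG, searched after the sequences were seen, reads the same on both strands and occurred in Nrarp, 108 to 103 bases before the start, and in 6.02% of all windows. These matches describe the letters in this window only. In the windows of Jag2 and Jag1, 250 and 124 of the 250 bases lay in exons of the GENCODE M21 annotation. The Notch1 window, at 26503823 to 26504072, lay inside the span of that gene.

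The levels of the genes were first compared with each other per length, as CPM per kb of exon, averaged over the 10 tumours. Hes1, a repressor of the basic helix-loop-helix class, had the highest level at 48.1, followed by Heyl, a related repressor, at 44.5. Hes1 lay above Heyl in 5 of 10 tumours, so these neighbours could not be ordered. Heyl lay above the ligand Jag1, at 21.4, in all 10 tumours. Jag1 lay above Notch3, at 14.3, in 7 tumours. Notch3 lay above Notch1, at 7.70, in 9 tumours. Notch1 and Notch2, at 6.05, exchanged places, with Notch1 above in 6 tumours, and Notch2 lay above Hey1 in all 10. Hey1, at 3.03, lay above Dll4, at 2.54, in 8 tumours, and Dll4 above Jag2, at 2.24, in 6. Jag2 lay above Nrarp, at 1.41, in all 10 tumours. The ranges over tumours of every pair of neighbours overlapped.

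**Figure D1:**
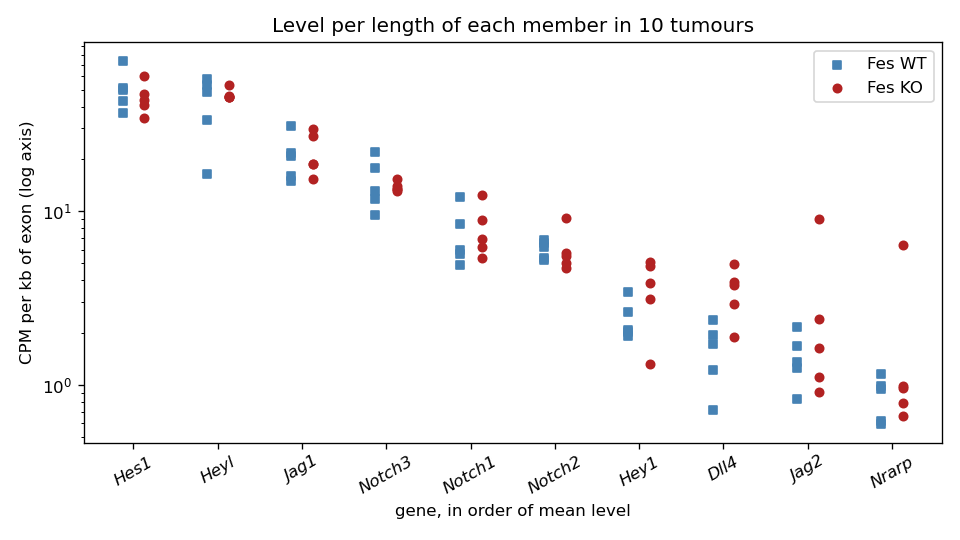
Level of each gene per length in CPM per kb of exon (log axis), 1 point per tumour, Fes WT as squares and Fes KO as circles, ordered by mean. Hes1 and Heyl are highest at 48.1 and 44.5, and the single high circles of Jag2 and Nrarp are Fes KO 2.

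The share of each receptor and ligand in its class was taken from the same levels per kb, with Notch4 and Dll1 added. Notch3 made up the largest share of receptor transcripts, at 44.8% ± 4.92 in Fes KO and 47.1% ± 9.04 in Fes WT (SD, n = 5 each). Notch1 had 25.3% ± 7.38 and 24.1% ± 8.23, Notch2 19.39% ± 4.79 and 20.02% ± 3.61, and Notch4 10.5% ± 3.91 and 8.77% ± 2.63. Among ligands Jag1 had 67.8% ± 8.77 in Fes KO and 79.4% ± 12.3 in Fes WT, from 56.0% to 80.3% and from 60.1% to 93.5%. Dll4 had 11.7% ± 5.33 and 6.33% ± 2.52, from 4.28% to 17.9% in Fes KO and from 2.15% to 8.91% in Fes WT. Jag1 was thus the most abundant of these 4 ligands in each of the 10 tumours, and the shares of all 8 genes overlapped between the groups.

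Differences between the genotypes were tested with the edgeR quasi-likelihood test across all genes, with Benjamini-Hochberg adjustment. None of the 10 genes changed at an adjusted p below 0.05, where 0.175% of all genes did (0.0472% higher and 0.128% lower in Fes KO), and none at an adjusted p below 0.1, where 0.331% did. Their adjusted p values lay between 0.326 and 0.999, and 1 of the 10, Dll4, had an unadjusted p below 0.05, against 9.62% of all genes. Limma-voom also called 0 of the 10, and DESeq2 called 0 of the 9 to which it gave an adjusted p (all but Nrarp). The fold changes of 7 genes lay above 0 and of 3 below, with a median log2 fold change of 0.14 (all genes tested: 0.01, with 52.4% above 0). Without the 3 Xist-expressing tumours that median was -0.10, and leaving out single tumours gave 0.00 (without Fes WT 5) to 0.33 (without Fes WT 4). In none of the 10 did every tumour of one group lie above every tumour of the other, which held for 1.90% of all genes (0.783% with Fes KO higher and 1.11% with Fes WT higher).

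**Figure D2:**
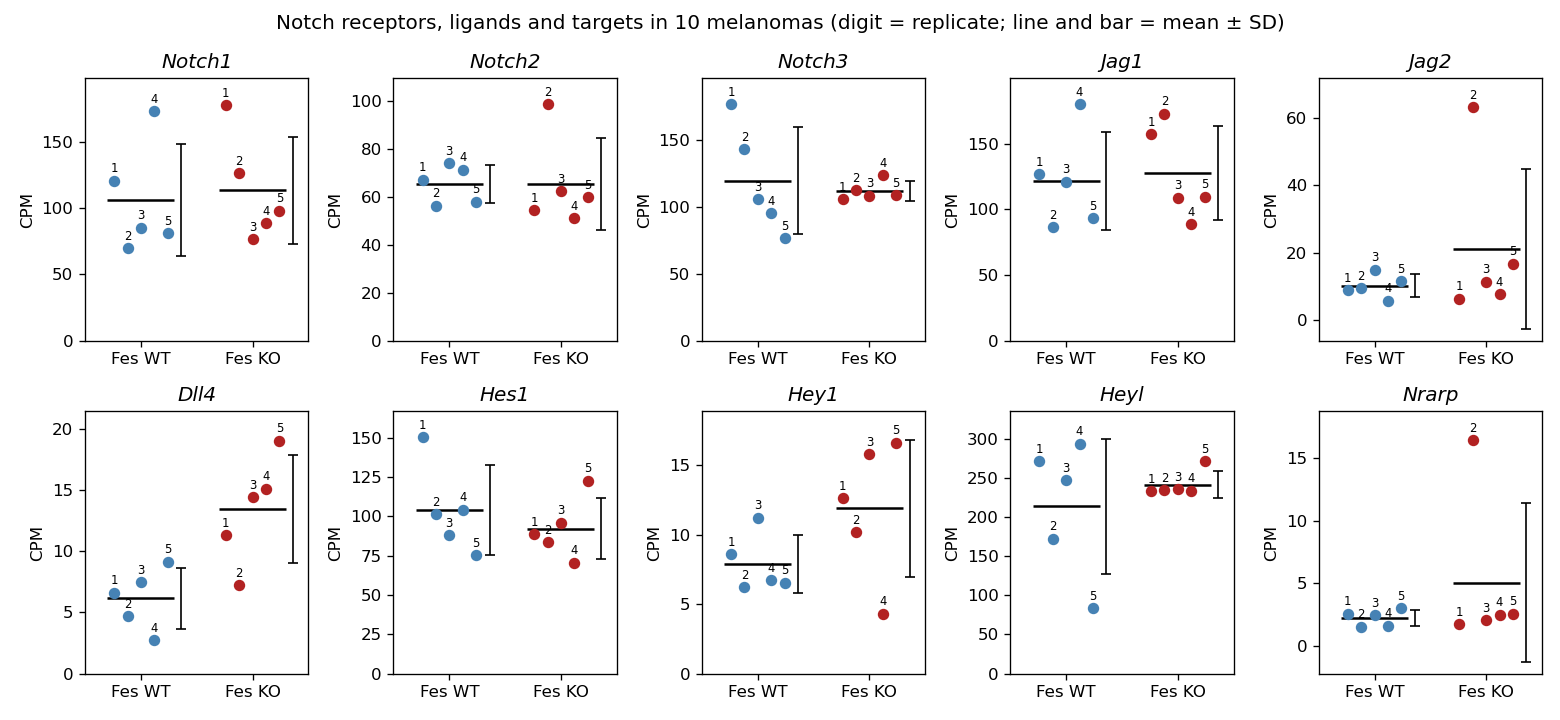
CPM of each gene in the 5 Fes WT and 5 Fes KO tumours, 1 point per tumour with its replicate number, a line for the mean and a bar for ± 1 SD. Dll4 has 4 Fes KO tumours above all Fes WT tumours, whereas Jag2 and Nrarp have a single high tumour, Fes KO 2, at 63.2 and 16.5 CPM.

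The ligand Dll4 (ENSMUSG00000027314, chromosome 2, 119325784 to 119335962), which restrains vessel sprouting, had the lowest adjusted p of the 10. Its levels in Fes KO 1 to 5 were 11.3, 7.23, 14.4, 15.1 and 19.0 CPM. In Fes WT 1 to 5 they were 6.60, 4.71, 7.48, 2.75 and 9.15 CPM. Thus 4 of 5 Fes KO tumours lay above every Fes WT tumour, and Fes KO 2 lay within the Fes WT range. The means were 13.4 ± 4.42 and 6.14 ± 2.48 CPM (SD, n = 5 each), a log2 fold change of 1.13 (SE 0.34, 95% interval 0.37 to 1.89, adjusted p = 0.326, edgeR quasi-likelihood test). The value stayed between 0.93 and 1.58 over 23 alternatives, with adjusted p from 0.0608 to 0.625, so the difference did not pass the threshold in any of them. These are 45 to 261 reads per tumour.

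Endothelial content was measured beside Dll4 with 15 endothelial markers. Their summed level was 665 to 1228 CPM in Fes KO against 811 to 954 CPM in Fes WT, and 11 of 15 had log2 fold changes above 0, with a median of 0.22. Eng, Cdh5 and Pecam1, surface proteins of the vessel wall, averaged 394 ± 96.3, 149 ± 58.8 and 79.9 ± 37.5 CPM in the Fes KO tumours against 416 ± 49.4, 127 ± 11.6 and 75.6 ± 22.4 CPM in Fes WT (SD, n = 5 each). Over the 10 tumours Dll4 and the mean of these markers had a Pearson r of 0.75 and a Spearman rho of 0.68 in log2 CPM, and r was 0.46 without the 2 tumours farthest from the median of the marker mean. Subtracting the marker mean from Dll4 in each tumour gave -1.87 to -1.12 log2 units in Fes KO and -2.77 to -1.91 in Fes WT. On that scale, which was taken up after the levels were seen and was not tested, the groups did not overlap. The share of all genes that separate on it was not computed, and Efnb2 and Bcl6, described below, overlapped on it. For Dll4 the groups did overlap after subtracting the pericyte and smooth muscle marker mean. That gave -2.37 to -1.67 in Fes KO and -3.63 to -1.95 in Fes WT. They also overlapped with the keratinocyte and melanocyte marker means. With the endothelial marker mean as a covariate in edgeR, Dll4 had a log2 fold change of 0.93 with an adjusted p of 0.240.

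**Figure D3:**
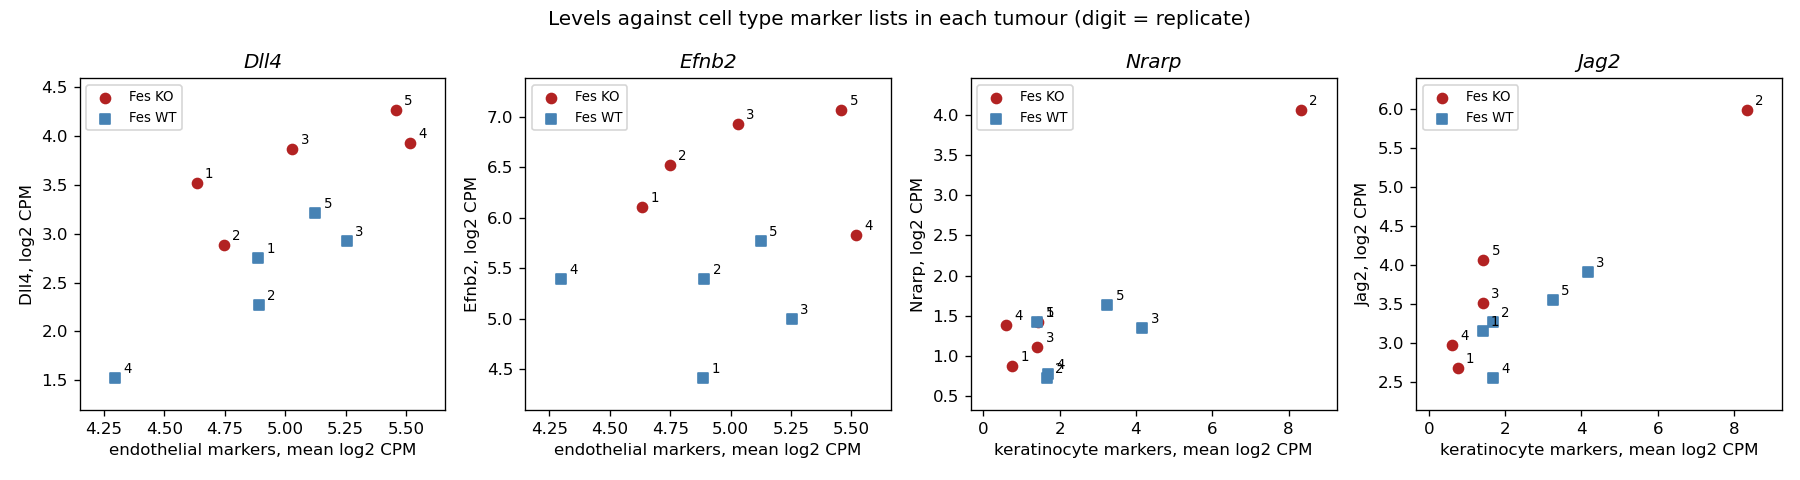
Log2 CPM of Dll4 and Efnb2 against the endothelial marker mean, and of Nrarp and Jag2 against the keratinocyte marker mean, 1 point per tumour with its replicate number (circles Fes KO, squares Fes WT). Dll4 minus the endothelial mean is -1.87 to -1.12 in Fes KO and -2.77 to -1.91 in Fes WT. Efnb2 minus that mean is 0.31 to 1.90 in Fes KO and -0.47 to 1.10 in Fes WT, so the groups overlap. Nrarp and Jag2 have 1 point apart, Fes KO 2.

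Jag2 (ENSMUSG00000002799, chromosome 12, 112907819 to 112929776), a ligand of the basal epidermis, was at 6.31, 63.2, 11.3, 7.72 and 16.7 CPM in Fes KO 1 to 5. It was at 8.75, 9.48, 15.0, 5.74 and 11.6 CPM in Fes WT 1 to 5. Fes KO 2 stood apart, and the other Fes KO tumours ranged around the Fes WT values. The log2 fold change of 1.06 (SE 0.61, adjusted p = 0.606) was 0.04 without Fes KO replicate 2. In that tumour the keratinocyte genes Krt5, Krt14 and Dsp were at 1596, 1203 and 861 CPM, against at most 74.5, 59.8 and 33.7 CPM elsewhere.

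Jag1 (ENSMUSG00000027276, chromosome 2, 137081456 to 137116644), the most abundant ligand, was at 157, 173, 109, 89.0 and 110 CPM in Fes KO 1 to 5. The Fes WT tumours had 127, 86.6, 121, 180 and 93.4 CPM. The groups covered the same range, with Fes WT 4 highest and Fes WT 2 lowest. Its log2 fold change came to 0.07 (SE 0.24, 95% interval -0.46 to 0.60, adjusted p = 0.945). Its sign turned without Fes KO replicate 1 (-0.02), Fes KO replicate 2 (-0.08), Fes WT replicate 2 (-0.03) and Fes WT replicate 5 (-0.01).

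The receptors were centred near 0 difference. Notch1 (ENSMUSG00000026923, chromosome 2, 26457903 to 26516663) was at 177, 126, 76.3, 88.3 and 97.9 CPM in Fes KO 1 to 5. In Fes WT 1 to 5 it was at 120, 69.6, 85.2, 173 and 81.2 CPM, so that the groups overlapped and each held 1 tumour well above the rest. The estimated log2 fold change was 0.10 (SE 0.29, 95% interval -0.56 to 0.75, adjusted p = 0.937), and it was -0.12 without Fes KO replicate 1 and -0.02 without Fes WT replicate 2.

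Notch2 (ENSMUSG00000027878, chromosome 3, 98013527 to 98150361) was at 54.3, 98.5, 62.4, 50.9 and 59.6 CPM in Fes KO 1 to 5. The Fes WT values were 67.1, 56.2, 74.0, 71.2 and 57.9 CPM. Fes KO 2 was again the highest tumour, and the log2 fold change of 0.00 (SE 0.18, adjusted p = 0.999) was -0.21 without it.

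Notch3 (ENSMUSG00000038146, chromosome 17, 32120820 to 32166852), the receptor of pericytes and vascular smooth muscle, was at 106, 113, 108, 124 and 109 CPM in Fes KO 1 to 5. In Fes WT 1 to 5 it was at 177, 143, 106, 95.5 and 76.7 CPM. The Fes KO tumours lay close together, and the Fes WT tumours spread on both sides of them. The SD was 7.15 CPM in Fes KO against 40.1 CPM in Fes WT (n = 5 each), a difference in spread that was not tested. Between the groups the log2 fold change was -0.10 (SE 0.20, 95% interval -0.54 to 0.35, adjusted p = 0.910), and 0.09 without Fes WT replicate 1. The 12 pericyte and smooth muscle markers, led by Mcam, Cspg4 and Pdgfrb, summed to 1529 to 3270 CPM in Fes KO against 2319 to 2892 CPM in Fes WT. Mcam and Cspg4 averaged 909 and 724 CPM over all tumours, so the sum mostly follows these 2 genes. Des, also in the list, was at 15.6 to 72.5 CPM in Fes KO and 9.07 to 691 CPM in Fes WT. Which cells these reads came from was not tested, so the sum is not a measure of pericytes alone.

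Of the targets, Heyl (ENSMUSG00000032744, chromosome 4, 123233556 to 123249875) showed the same contrast in spread. It was at 233, 234, 235, 234 and 272 CPM in Fes KO 1 to 5. In Fes WT 1 to 5 it was at 271, 172, 247, 294 and 83.6 CPM, with Fes WT 5 far below every other tumour. The SD was 16.9 CPM in Fes KO against 85.9 CPM in Fes WT (n = 5 each). Its log2 fold change of 0.18 (SE 0.28, adjusted p = 0.874) was -0.03 without Fes WT replicate 5. The contrast in spread was not shared by the list. The SD in CPM was larger in Fes KO for Notch2 (19.2 against 7.92), Hey1 (4.96 against 2.09), Dll4, Jag2 and Nrarp. It was close between the groups for Notch1 (40.3 against 42.1) and Jag1 (35.7 against 37.1), and lower in Fes KO for Hes1 (19.4 against 28.4).

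Hes1 (ENSMUSG00000022528, chromosome 16, 30064384 to 30067796), which represses differentiation genes, was at 88.6, 83.4, 96.0, 70.5 and 123 CPM in Fes KO 1 to 5. The Fes WT tumours had 150, 101, 88.1, 104 and 75.3 CPM. The groups overlapped, and the log2 fold change was -0.17 (SE 0.20, 95% interval -0.61 to 0.26, adjusted p = 0.809). It was -0.0018 without Fes WT replicate 1, -0.088 without Fes KO replicate 4, -0.27 without Fes WT replicate 5 and -0.30 without Fes KO replicate 5.

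Hey1 (ENSMUSG00000040289, chromosome 3, 8663359 to 8667256), a repressor active in endothelium, was at 12.6, 10.2, 15.8, 4.32 and 16.6 CPM in Fes KO 1 to 5. It was at 8.62, 6.24, 11.2, 6.71 and 6.56 CPM in Fes WT 1 to 5. Thus 3 Fes KO tumours lay above every Fes WT tumour, while Fes KO 4 had the lowest value of all 10. For Hey1 the log2 fold change was 0.60 (SE 0.33, 95% interval -0.15 to 1.34, adjusted p = 0.595), and over the alternatives it lay between 0.44 and 0.81. Over the 10 tumours Hey1 had a Pearson r of -0.67 and a Spearman rho of -0.65 with the mean of 8 macrophage markers, and r was -0.48 without the 2 tumours farthest from the median of that mean. Those markers summed to 797 to 1860 CPM in Fes KO against 1257 to 3008 CPM in Fes WT, and the part of that content in the Hey1 levels was not tested.

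Nrarp (ENSMUSG00000078202, chromosome 2, 25180758 to 25183339), a feedback inhibitor that binds the nuclear complex, was at 1.70, 16.5, 2.03, 2.48 and 2.55 CPM in Fes KO 1 to 5. The Fes WT tumours had 2.55, 1.53, 2.43, 1.59 and 2.97 CPM. Fes KO 2 stood apart, with 264 reads against 24 to 39 in the other tumours. The log2 fold change of 1.19 (SE 0.65, adjusted p = 0.593) was -0.02 without Fes KO replicate 2, so the sign of the highest fold change among the 10 rested on 1 tumour.

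**Figure D4:**
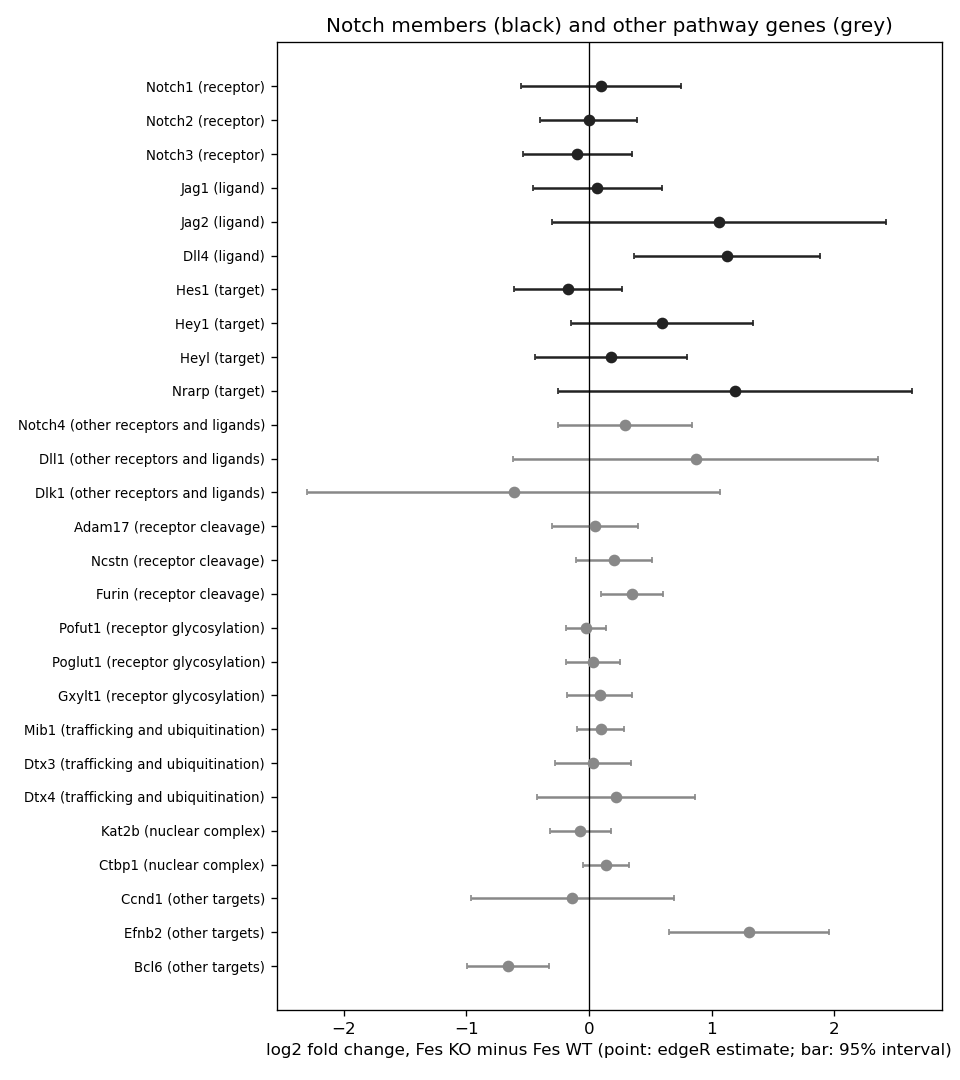
Log2 fold change of each gene, Fes KO minus Fes WT, as the edgeR estimate (point) with its 95% interval (bar), for the 10 Notch genes in black and other pathway genes in grey with their class in brackets. Among the black points the interval of Dll4 alone, 0.37 to 1.89, does not reach 0.

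How the 10 genes varied together was described over all tumours. Of 45 pairs, 4 had a Pearson r above 0.7 in log2 CPM, 26 lay between -0.3 and 0.3, and the median was 0.15. The highest was Jag2 with Nrarp, at r = 0.91 (Spearman rho 0.67), which was 0.44 without the 2 tumours farthest from the median of Jag2. Notch2 had r = 0.74 with both Jag2 and Nrarp, and -0.09 and -0.14 without the 2 tumours farthest from the median of Notch2. Fes KO 2 was the highest tumour for each of these 3 genes, and their r with the keratinocyte marker mean was 0.86 to 0.89 (0.27 to 0.36 without the 2 tumours farthest from the median of that mean). With the melanocyte marker mean, also highest in Fes KO 2, r was 0.59 for Notch2, 0.69 for Jag2 and 0.78 for Nrarp, and -0.30, 0.28 and 0.13 without the 2 tumours farthest from its median. With the skeletal muscle marker mean Notch2 had r = 0.79 (rho 0.76), and 0.74 without the 2 tumours farthest from its median, whereas Jag2 and Nrarp had 0.39 each, and -0.57 and -0.30 without those 2. Notch1 and Jag1 had r = 0.88 (rho 0.85) and kept 0.81 without the 2 tumours farthest from the median of Notch1. Both had a negative r with the endothelial marker mean, of -0.69 and -0.74 (rho -0.58 and -0.71), and of -0.56 and -0.52 without the 2 tumours farthest from the median of that mean. Dll4 had an r of -0.41 with Jag1 and of -0.32 with Notch1, which were 0.09 and -0.03 without the 2 tumours farthest from the median of the latter genes. The points share library composition, so a gene's CPM also depends on the other transcripts of its tumour. All r were taken over both groups together, so a difference between the groups enters them. No such r was computed within a group.

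**Figure D5:**
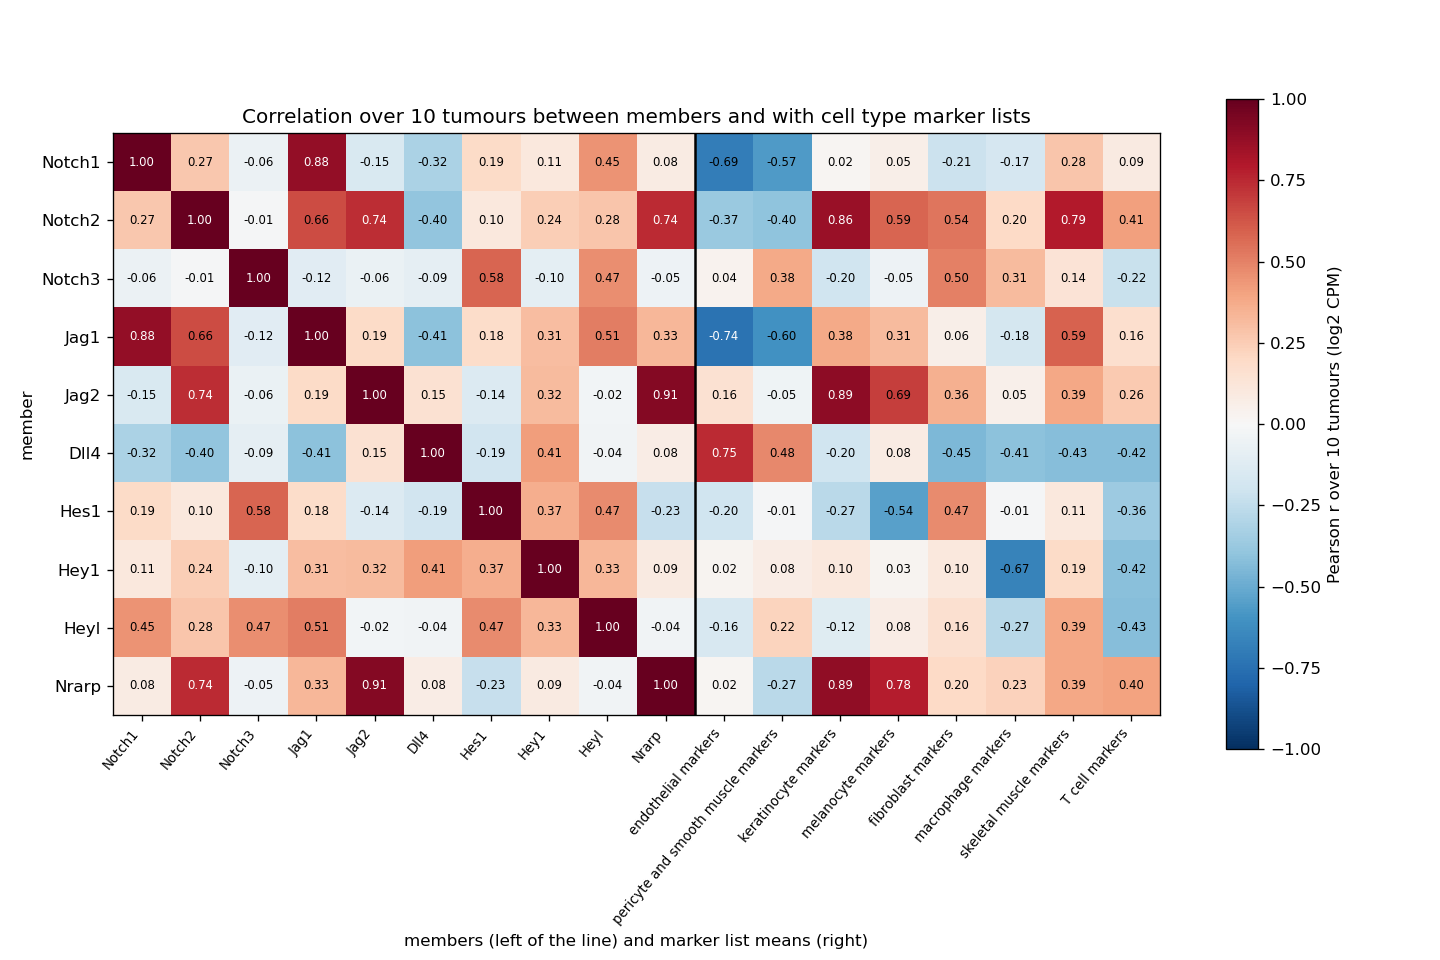
Pearson r over the 10 tumours, from log2 CPM, between the Notch genes (left of the line) and with the means of 8 cell type marker lists (right), coloured from -1 (blue) to 1 (red). Notch1 with Jag1 (0.88) and Jag2 with Nrarp (0.91) are the highest pairs, and Jag2, Nrarp and Notch2 share high values with keratinocyte markers.

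For each gene the 2 genes of most similar pattern were taken by Pearson r over the 10 tumours among all tested genes. For Dll4 these were Arhgap20 (r = 0.94) and Cd93 (0.94), the latter an endothelial surface protein. For Notch1 they were Spry2 (0.93), a feedback inhibitor of receptor tyrosine kinase signalling, and Clcn3 (0.91). For Jag1 they were Mycn (0.95, rho 0.99), a Myc family transcription factor at 5.09 to 25.3 CPM, and Irgq (0.93). Notch2 was most like Sowahc (0.95) and Rapgefl1 (0.93), and Notch3 most like Ltc4s (0.92) and Npy1r (0.87). Jag2 was most like Endou (0.97, rho 0.90) and Pik3cb (0.96, rho 0.93), and Nrarp most like Rnf144b (0.99, rho 0.84) and Pik3cb (0.98, rho 0.83). Fes KO 2 was far above the other tumours for Jag2 and Nrarp, so a Pearson r with either depends strongly on that tumour. Hes1 was most like Tob2 (0.90) and Rab39 (0.89), and Heyl most like Trappc8 (0.91) and Tcea1 (0.91). Hey1 was most like Dok7 (0.95) and Klrb1c (0.94). Spearman rho was lower for some pairs, at 0.64 for Notch3 with Npy1r and 0.66 for Heyl with Tcea1. With 14816 genes to choose from, high values of r over 10 tumours occur readily, and these are descriptions.

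The rest of the pathway was followed with 57 further genes in 6 lists, of which 50 were tested. None changed in edgeR, where 3 of 50 had an unadjusted p below 0.05 (9.62% of all genes), and 2 of 50 had groups that did not overlap (1.90% of all genes). Both, Efnb2 and Bcl6, came from the list of other targets. Whether Notch activates Bcl6 in these tumours was not tested. The median log2 fold change was 0.05, with 32 above 0 and 18 below.

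Efnb2 (ENSMUSG00000001300, chromosome 8, 8617434 to 8661242) encodes ephrin-B2, a membrane ligand of Eph receptors and a marker of arterial endothelium that Notch signalling is known to activate. It was at 68.7, 91.7, 122, 56.8 and 134 CPM in Fes KO 1 to 5. In Fes WT 1 to 5 it was at 21.2, 42.0, 31.9, 41.9 and 54.3 CPM. Every Fes KO tumour lay above every Fes WT tumour, with Fes KO 4 and Fes WT 5 closest to each other. The means were 94.5 ± 33.0 and 38.2 ± 12.4 CPM (SD, n = 5 each), a log2 fold change of 1.30 (SE 0.29, 95% interval 0.65 to 1.96, adjusted p = 0.183, edgeR quasi-likelihood test). Over 23 alternatives the value was 1.146 to 1.598, with adjusted p from 0.00321 (DESeq2) to 0.436. DESeq2, which called more genes than edgeR in these data, was the only alternative in which Efnb2 passed the threshold. Efnb2 had r = 0.62 and rho = 0.71 with Dll4, and r was 0.57 without the 2 tumours farthest from the median of Dll4. Both genes had higher means in Fes KO, so this r includes the difference between the groups. It does not show that they vary together within a group. With the endothelial marker mean r was 0.22 (rho 0.21, and r = 0.17 without 2 tumours), and with the macrophage marker mean -0.78 (rho -0.66, and r = -0.75 without 2 tumours). Macrophage markers were lower in Fes KO, so the r with their mean includes the group difference too. The part of macrophage content in the Efnb2 levels was not tested. Minus the endothelial marker mean, Efnb2 lay at 0.31 to 1.90 log2 units in Fes KO and -0.47 to 1.10 in Fes WT. The groups overlapped on that scale.

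Bcl6 (ENSMUSG00000022508, chromosome 16, 23965052 to 23988852), a transcriptional repressor, was at 44.2, 54.1, 49.5, 54.8 and 55.1 CPM in Fes KO 1 to 5. It was at 81.3, 111, 62.0, 86.7 and 67.1 CPM in Fes WT 1 to 5. Every Fes WT tumour lay above every Fes KO tumour. Minus the endothelial marker mean the groups overlapped, at 0.26 to 1.01 log2 units in Fes KO and 0.70 to 2.14 in Fes WT. The log2 fold change was -0.66 (SE 0.15, 95% interval -0.998 to -0.326, adjusted p = 0.193, edgeR quasi-likelihood test). Over 23 alternatives the value was -0.77 to -0.53, with adjusted p from 0.00901 (DESeq2) to 0.451. Only DESeq2 and limma-voom (adjusted p = 0.0490) passed the threshold for Bcl6, and both called more genes than edgeR in these data. Of the 10 genes in this list 6 were tested, and the third named one, the cyclin gene Ccnd1, was at 990 ± 315 and 1089 ± 631 CPM (SD, n = 5 each) with -0.14 (adjusted p = 0.929), and 0.22 without Fes WT replicate 4. Hes5, the classical neural target of Notch, had 1 read in Fes KO 2 and 0 in each other tumour.

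Of 6 other receptors and ligands 3 were tested. For Notch4, the endothelial receptor, the fold change on the log2 scale was 0.29 (SE 0.25, adjusted p = 0.730), which was 0.10 without Fes KO replicate 5 and 0.17 without Fes WT replicate 4. Its r with the endothelial marker mean was 0.86 (rho 0.77, and r = 0.75 without the 2 tumours farthest from the median). The ligand Dll1 was at 11.7, 13.7, 19.8, 6.60 and 31.3 CPM in Fes KO 1 to 5 and at 3.13, 5.47, 6.56, 2.62 and 27.8 CPM in Fes WT 1 to 5. All Fes KO tumours thus lay above 4 of the Fes WT tumours, and Fes WT 5 lay among the highest. Its log2 fold change was 0.87 (SE 0.67, adjusted p = 0.706), and 1.90 without Fes WT replicate 5 (adjusted p = 0.183). Dlk1, a non-canonical ligand, had -0.61 (SE 0.76, adjusted p = 0.827), and -1.33 without Fes KO replicate 2. Dll3 had 1 read in each of 3 Fes KO tumours and 0 in the other tumours.

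All 10 receptor cleavage genes were tested, with log2 fold changes of -0.27 to 0.35. Furin, the convertase that cuts the receptor during its maturation, had 0.35 (SE 0.11, adjusted p = 0.356). Furin (80388585 to 80405436) is also the gene next to Fes (80377756 to 80387946) on chromosome 7. The metalloprotease gene Adam17 and the gamma-secretase subunit gene Ncstn had 0.05 (adjusted p = 0.942) and 0.21 (adjusted p = 0.660), and the sign of Adam17 turned without Fes KO replicates 1 or 5 or Fes WT replicates 2 or 3, the lowest value being -0.01. The 7 glycosylation genes lay between -0.38 and 0.16, with Pofut1, which adds fucose to the receptor, at -0.03, Poglut1 at 0.04 and Gxylt1 at 0.09. Without Fes KO replicate 1 Poglut1 was at -0.03, and without Fes KO replicate 5 Pofut1 was at 0.01.

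The 12 trafficking and ubiquitination genes lay between -0.47 and 1.19, with Dtx4 at 0.22, Dtx3 at 0.03 and the ligand ubiquitin ligase gene Mib1 at 0.09. Leaving out single tumours moved Dtx4 to between 0.083 (without Fes WT replicate 3) and 0.39 (without Fes KO replicate 2), with 0.11 without Fes KO replicate 5, 0.12 without Fes KO replicate 3 and 0.36 without Fes WT replicate 2. Dtx3 was at -0.05 without Fes KO replicate 5 and at -0.03 without Fes WT replicate 3. The 12 genes of the nuclear complex had a median of 0.02 and lay between -0.36 and 0.26. Among its abundant members, the corepressor gene Ctbp1 and the acetyltransferase gene Kat2b had 0.14 (adjusted p = 0.630) and -0.07 (adjusted p = 0.872). Rbpj, the DNA-binding partner of the receptors, was named outside the rule after its value was seen, and averaged 46.2 ± 7.41 CPM in the Fes KO tumours against 52.6 ± 11.0 CPM in Fes WT (SD, n = 5 each, adjusted p = 0.730, edgeR).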

How the data were processed

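RNA of 10 mouse melanomas was sequenced, with group and replicate taken from each title. The authors deposited raw read counts per gene and log2 values, which from the values equal log2(x + 1), where x is a count over its tumour's size factor. Per the submitters' processing notes, the tools included STAR (version 2.51b), Subread (version 1.4.6) and FastQC, with GRCm38 and mm10 as builds. The strand setting of the counting is not given in the sources used here, so reads of overlapping genes could be shared. Table columns were matched to samples by the tumour code in the description.

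The test was edgeR (4.0.16, under R 4.3.3) on the counts (TMM, filterByExpr with the group, quasi-likelihood test, 2-sided, Benjamini-Hochberg over 14816 genes, threshold 0.05). Alternatives were DESeq2 version 1.42.0, limma version 3.58.1 (voom with quality weights, and the deposited log2 values), other normalization and filters, marker means as covariates, the replicate block, and leaving out tumours. Log2 CPM used a prior count of 2, and marker list means took tested genes only (4 of 12 for keratinocytes). Exon lengths and positions came from GENCODE M21 (GRCm38). Correlations have no p. The named genes are the 10 Notch genes, the 3 most abundant tested genes of each other pathway list, the 3 most abundant of each marker list, and the 2 genes most like each Notch gene, without symbols of predicted genes or pseudogenes. 1 gene that this rule names and 1 allele shared by both groups are not reported here. Fes, Xist and Ddx3y were checks, and Tyr, Rbpj, Hes5 and Dll3 were named after their values were seen. The genes, lists and alternatives were chosen with earlier results of these data known. The fit without Fes KO 2 and Fes WT 3 together was added after seeing the data. Tested on simulated counts of 14676 genes, edgeR made 142 calls, of which 6 were wrong, and found 49% of the genes set to change 2-fold and 87% of those set to change 4-fold.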

Additional observations from a re-analysis of the deposited data

Results flagged for a closer look

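Among 58 combinations of a gene and a group, 7 had 1 tumour far from the other 4. Chance gives about 1 in 20 for independent values with a normal distribution. CPM need not be normal and the genes share the same tumours, so that rate need not hold here and no excess is claimed. In Fes KO 2 the flagged genes were Nrarp at 16.5 CPM (next highest Fes KO tumour 2.55), Jag2 at 63.2 CPM (16.7) and Notch2 at 98.5 CPM (62.4). Fes KO 2 was also the tumour with 5803 CPM of summed keratinocyte markers, and among Fes KO tumours it was highest in summed skeletal muscle markers (1841 CPM) and in the melanocyte marker mean (6.10 in log2 CPM, next 3.78). The part of these contents in the 3 values was not tested. Heyl was at 272 CPM in Fes KO 5, where the other 4 Fes KO tumours lay within 233 to 235 CPM. In Fes WT 5, Dll1 was at 27.8 CPM against at most 6.56 CPM in the other Fes WT tumours, and Dlk1 was at 0.457 CPM against at least 8.73 CPM. Notch4 was at 13.5 CPM in Fes WT 4 against at least 22.05 CPM in the other Fes WT tumours.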

How the results depend on the processing

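No alternative called any of the 10 Notch genes, and in the simulated counts many 2-fold differences were missed with 5 tumours a group. The simulation varied each gene on its own and held no tumours of differing content such as Fes KO 2. Its shares therefore need not hold for these 10 genes. The count of 26 genes called over all genes (7 higher, 19 lower) was 270 in DESeq2 (92 higher, 178 lower), 115 in limma-voom (31 higher, 84 lower), 4 with the replicate block, 13 with the pericyte covariate, 64 without the Xist-expressing tumours (36 higher, 28 lower), and 10 to 54 with 1 tumour left out. The count of other pathway genes called was 0 in edgeR, 2 in DESeq2 (Efnb2 and Bcl6) and 1 in limma-voom (Bcl6), and 0 with 1 tumour left out. The cause of these differences was not tested.

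The median of the 10 Notch genes was -0.10 without the Xist-expressing tumours and 0.00 to 0.33 with 1 tumour left out. Without the Xist-expressing tumours the sign also turned for Notch1 (-0.35), Jag1 (-0.33), Poglut1 (-0.070) and Kat2b (0.017), and without Fes KO 2 and Fes WT 3 for Notch1 (-0.017) and Jag1 (-0.072). Notch2 was at 0.041 with library size only, 0.044 with the endothelial and 0.023 with the pericyte covariate. Pofut1 was at 0.0045 with library size only, Dtx3 at -0.0016 in limma-voom and -0.0088 with the pericyte covariate, and Ccnd1 at 0.035 in limma-voom and 0.16 with the endothelial covariate. With 1 tumour left out, values ranged from -0.12 to 0.35 for Notch1, -0.215 to 0.075 for Notch2, -0.22 to 0.088 for Notch3, -0.080 to 0.25 for Jag1, -0.026 to 0.32 for Heyl, -0.024 to 1.41 for Nrarp, -0.014 to 0.15 for Adam17, -0.072 to 0.0098 for Pofut1, -0.029 to 0.090 for Poglut1, -0.052 to 0.15 for Dtx3 and -0.33 to 0.22 for Ccnd1. Dll4, Hey1, Jag2 and Hes1 kept their sign in all 23 alternatives, but Hes1 only at -0.0018 without Fes WT replicate 1 and Jag2 at 0.038 without Fes KO replicate 2.

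The groups share replicate numbers, but tumours of the same number did not deviate together (correlations of -0.38 to 0.17). The labels do not say what the number stands for, and these few correlations cannot exclude a pairing. The main test did not pair the tumours. With the replicate block Dll4 had 1.15 (adjusted p = 0.393) and Efnb2 1.30 (adjusted p = 0.237), and no Notch gene was called.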
